A study of Homo sapiens with 11 samples.

Results

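ZNF genes are the largest naming group of zinc finger genes, and nearly all encode proteins with arrays of C2H2 fingers. They were taken here as every symbol of the authors' table made of ZNF, a number and at most 1 letter, with 1 symbol not analysed here. This gave 246 of the 8085 genes in the table. In a C2H2 finger, a pair of cysteines and a pair of histidines hold a zinc ion, and a short helix reads a few bases of DNA. Many of these proteins also carry a KRAB box near the amino end, which binds the corepressor TRIM28 and through it brings histone methylation and silencing, often to transposable elements. Genes of this kind lie in tandem runs on chromosome 19 that grew by duplication. BCL11A is itself a C2H2 zinc finger repressor, known for silencing fetal globin genes in red blood cell precursors and for its expression in basal-like breast cancer, and it works with the NuRD complex. MBNL1 is an RNA-binding protein with zinc fingers of the CCCH type that sets the splicing of many exons.

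Total RNA was sequenced in 11 libraries of MDA-MB-231 cells, a breast cancer line of basal, mesenchymal character grown from a pleural effusion. All cells were transfected with siRNA and collected after 48 h: 2 libraries with non-targeting siRNA (siNS, 100 nM), 3 with a pool against BCL11A (siBCL11A, 100 nM), 3 with a pool against MBNL1 (siMBNL1, 100 nM) and 3 with both pools (siB/siM, 50 nM each). Only 1 pool was used against each target, so effects of the pool and of the target cannot be told apart. The labels do not say whether replicates were separate cultures, and p-values then measure only the spread between libraries.

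MBNL1 was at 10.2 and 9.77 RPKM (read counts scaled by transcript length and by library size) in siNS, at 3.17, 3.52 and 2.55 in siMBNL1 and at 3.53, 3.65 and 3.56 in siB/siM. It stood at 27.7, 27.5 and 27.6 in siBCL11A. BCL11A has no value in the table used here, so its knockdown was not checked. Among markers of the line, VIM (917 RPKM), CD44 (185) and CAV1 (153) were high in siNS. Markers of other cell types fell with the knockdowns wherever they were listed. The 3 of 5 immune markers in the table had median log2 changes of −1.17, −0.71 and −1.07 in siBCL11A, siMBNL1 and siB/siM (CD14 from 1.96 RPKM, CSF1R from 2.74 and CD68 from 56.8 in siNS), PDGFRB changed by −1.30, −1.08 and −1.27 from 2.67 RPKM, and the luminal genes EPCAM (8.93 RPKM) and GATA3 (1.9 RPKM) were lower as well. Their part in the results below was not tested. Effective library sizes, worked out from the smallest steps in the values of short RNAs, ran from about 20000000 to 34900000 reads, and the median member had an estimated 251 to 307 reads per library across the blocks. In bulk RNA, fewer cells of a kind and less RNA per cell cannot be told apart.

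The table has a block for each knockdown against siNS, and a block holds only genes that passed the authors' own test there. A gene with values in a block had therefore already been found to differ from siNS. The siNS comparisons can thus show the direction of its change, and not the fact of a change. Every gene in the table also reached a mean of 1 RPKM in at least 1 group. A member under 1 RPKM in siNS, such as ZNF43, ZNF559 or ZNF678, could be there only through a knockdown where it was higher. Its direction was thus largely fixed in advance, and the counts of higher members below include such genes. The lower quartile in siNS was 1.16 RPKM for members and 4.07 RPKM for all genes. The siBCL11A block held 163 members, that of siMBNL1 130 and that of siB/siM 221. Of the 246 members, 95 were in all 3 blocks, 78 in 2 and 73 in 1, and 53 were in the siB/siM block alone. The 3 blocks share the same 2 siNS libraries, so their values are given side by side.

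Sequences of a few members show the features that the results below are sorted by. The coding DNA of 1 finger is given for ZNF266, which rose most in siBCL11A, and for ZNF827, which fell. Capitals mark the codons of the 2 cysteines and 2 histidines that hold the zinc.
ZNF266 finger: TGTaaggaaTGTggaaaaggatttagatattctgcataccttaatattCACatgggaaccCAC
ZNF827 finger: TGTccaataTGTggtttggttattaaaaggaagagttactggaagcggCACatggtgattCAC
The KRAB A box was found by comparing translated frames of GENCODE 29 transcripts with a consensus of 36 residues taken from the members themselves, with at least 13 identities required. It is given as coding DNA for ZNF266 and for ZNF175, a KRAB gene that fell, with the codons of residues equal to the consensus in capitals.
ZNF266 KRAB: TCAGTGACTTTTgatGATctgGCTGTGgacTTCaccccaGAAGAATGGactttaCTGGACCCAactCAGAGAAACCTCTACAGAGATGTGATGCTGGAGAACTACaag
ZNF175 KRAB: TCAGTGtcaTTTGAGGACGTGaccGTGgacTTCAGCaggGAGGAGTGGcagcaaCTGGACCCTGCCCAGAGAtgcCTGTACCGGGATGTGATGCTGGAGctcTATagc
Both boxes had 27 of 36 residues in common with the consensus, although the genes moved in opposite directions. A frame was found for 241 members, of which 171 had a KRAB box and 70 did not. KRAB members held a median of 12 fingers and the others 5. On chromosome 19 lay 128 members (52%), against 7.57% of all genes in the table with a known chromosome, and 111 of these 128 had a KRAB box.

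In siBCL11A against siNS, 132 of the 163 listed members were higher, where 42.3% of all listed genes were, and 17 were lower, where 46.9% of all listed genes were (limma on log2(RPKM + 1), adjusted p under 0.05). The members' median log2 change was 0.42, with quartiles of 0.30 and 0.64, while that of all 5360 listed genes was −0.22. Called in either direction were 149 members, in a block where 89.2% of all genes were called again. In siMBNL1, 104 of 130 members were higher (45.2% of all listed genes) and 17 lower (49.1%), with a median of 0.39 against −0.25, and 94.3% of all its genes were called. With both pools, 188 of 221 were higher (51.3%) and 14 lower (35.5%), with a median of 0.46 against 0.24, and 86.9% of all its genes were called. On this scale a log2 rise of 1 or more was passed by 12, 5 and 12 members, where 1.75%, 2% and 2.07% of all listed genes passed it, and no member passed a fall of that size, which 4.51%, 2.84% and 3.03% of all listed genes did. The added 1 RPKM shrinks the changes of weakly expressed genes such as these. By the ratio of mean RPKM, 41, 24 and 53 members were called and at least 2 times higher (3.96%, 4.26% and 4.84% of all listed genes), and 0, 3 and 1 were at most 0.5 times as high (9.91%, 7.01% and 6.84%). The libraries did not overlap siNS in 161, 130 and 218 of the listed members, as in 97.7%, 99.7% and 99.6% of all listed genes, which follows from how genes were listed. In the authors' deposited lists for siBCL11A, 33 members made up 18% of the higher genes and 0 were among the lower, where members were 3.04% of all genes in the block.

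**Figure D1:**
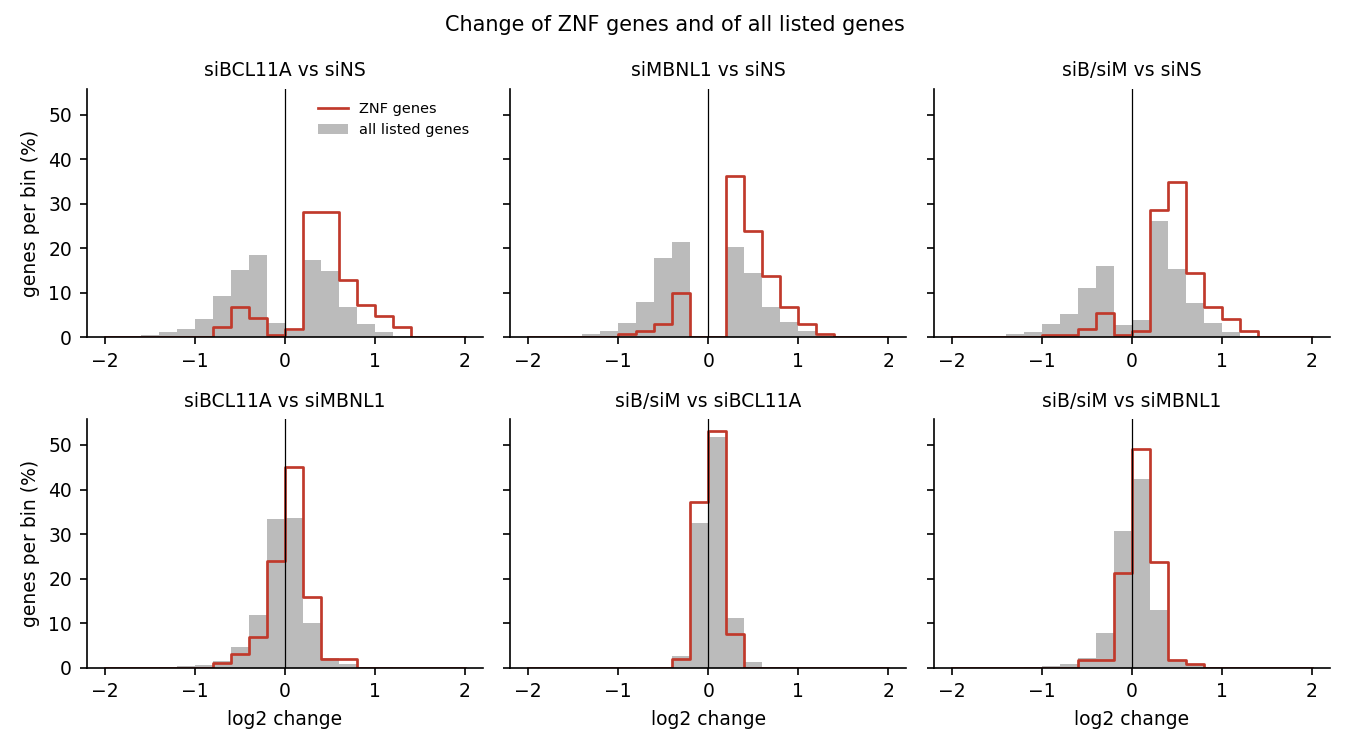
Share of genes per bin of log2 change (x axis, log2(RPKM + 1) scale) in each of the 6 comparisons, with all listed genes as grey bars and ZNF genes as a red line. In the top row the ZNF line sits to the right of 0 (medians of 0.42, 0.39 and 0.46), while the bottom row, between knockdowns, centres near 0.

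Every knockdown library showed the shift. Over the 95 members in all 3 blocks, the median distance from the siNS mean was 0.52 to 0.53 in the siBCL11A libraries, 0.41 to 0.46 in siMBNL1 and 0.58 to 0.64 in siB/siM. In each of these libraries 87 or 88 of the 95 members lay above the siNS mean. The same distance over the 3149 genes in all blocks was −0.15 to −0.25. All these genes were listed because they differed from siNS in these same libraries. That each library repeated the direction of its group therefore follows largely from the listing. It is no separate test of the shift. The 3 groups of libraries did not overlap each other in the members' median, in the order siMBNL1, siBCL11A, siB/siM. The step from siBCL11A to siB/siM was small. Over the 145 members listed in both, the median difference was 0.03 and 0 were called. It was gone with libraries centred on their median.

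**Figure D2:**
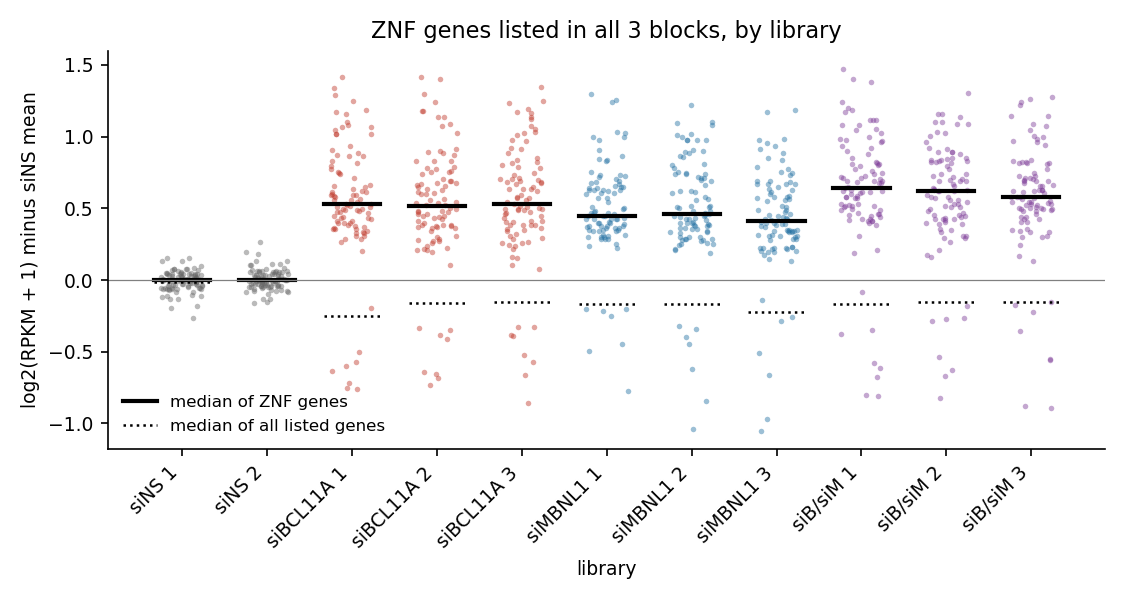
Each point is 1 of the 95 ZNF genes listed in all 3 blocks, as log2(RPKM + 1) minus its siNS mean (y axis) in each of the 11 libraries (x axis). Solid bars give the median of these genes (0.41 to 0.64 in knockdown libraries) and dotted bars that of the 3149 genes listed in all blocks (−0.15 to −0.25).

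The knockdowns gave a member the same direction almost throughout, and they did so in about the same share of all genes. What set the members apart was the split between higher and lower. Of the 95 members in all 3 blocks, 83 (87.4%) were called higher in all and 6 (6.32%) lower in all, while of all 3149 such genes 46.5% were higher in all and 45.3% lower in all. The other 6 members were ZNF451, with opposite calls, and 5 that missed the call at least once. Counting any block, 198 of 246 members were higher at least once and never lower, 27 were lower at least once and never higher, and 20 were called in none. Of all 8085 genes, 46.5% were higher and never lower and 41.1% lower and never higher. As the comparisons share siNS, part of this likeness comes from the same control values.

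The members with the strongest rises in siBCL11A and siB/siM were KRAB genes of a short run on chromosome 19. ZNF266 was at 2.65 and 3.21 RPKM in siNS, at 8.93, 9.36 and 8.96 in siBCL11A, at 6.96, 7.27 and 6.61 in siMBNL1 and at 9.36, 8.68 and 8.48 in siB/siM. Every knockdown library was above both siNS libraries, and siMBNL1 lay between siNS and the other groups. The log2 change in siBCL11A was 1.36 ± 0.07 (SE, limma, adjusted p = 1e-07), a 3.1-fold ratio of means. ZNF426 was at 3.33 and 2.6 RPKM in siNS and at 9.52, 9.56 and 8.39 in siBCL11A, with 6.07 to 6.78 in siMBNL1 and 7.8 to 9.96 in siB/siM. It had the same order of groups, with a siBCL11A change of 1.36 ± 0.10 (adjusted p = 1.48e-06). ZNF559 was at 0.599 and 1.05 RPKM in siNS and at 3.26 to 3.45 in siBCL11A, 2.03 to 3.33 in siMBNL1 and 2.89 to 3.71 in siB/siM. Its 2 siNS libraries were far apart, as were those of its neighbour ZNF177 (0.77 and 1.75 RPKM), which rose to 3.34 to 3.85 RPKM in siB/siM. Transcripts that read through from ZNF559 into ZNF177 are known, so reads of this pair could have been split between them.

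Outside that run, ZNF268, a KRAB gene on chromosome 12, was at 1.4 and 1.25 RPKM in siNS, at 4.53, 4.51 and 4.32 in siBCL11A, at 4.72, 4.41 and 4.29 in siMBNL1 and at 4.34, 3.75 and 3.95 in siB/siM. All knockdown libraries were about as high as each other, with log2 changes of 1.23 ± 0.06, 1.23 ± 0.06 and 1.11 ± 0.06 (adjusted p = 1.16e-07, 2.03e-07 and 2.35e-07). ZNF530 rose from 1.31 ± 0.0026 (SD, n = 2) to 3.92 ± 0.266 RPKM in siBCL11A (SD, n = 3), with a log2 change of 1.09 ± 0.08. ZNF35, which has no KRAB box, was at 2.3 and 1.96 RPKM in siNS and at 5.39, 4.83 and 6.05 in siMBNL1, a log2 change of 1.04 ± 0.11 (adjusted p = 2.72e-05). The levels of these genes were low, so the added 1 RPKM makes the log2 changes smaller than the ratios of means, which were 3.35 for ZNF268, 3 for ZNF530 in siBCL11A and 2.55 for ZNF35 in siMBNL1.

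**Figure D3:**
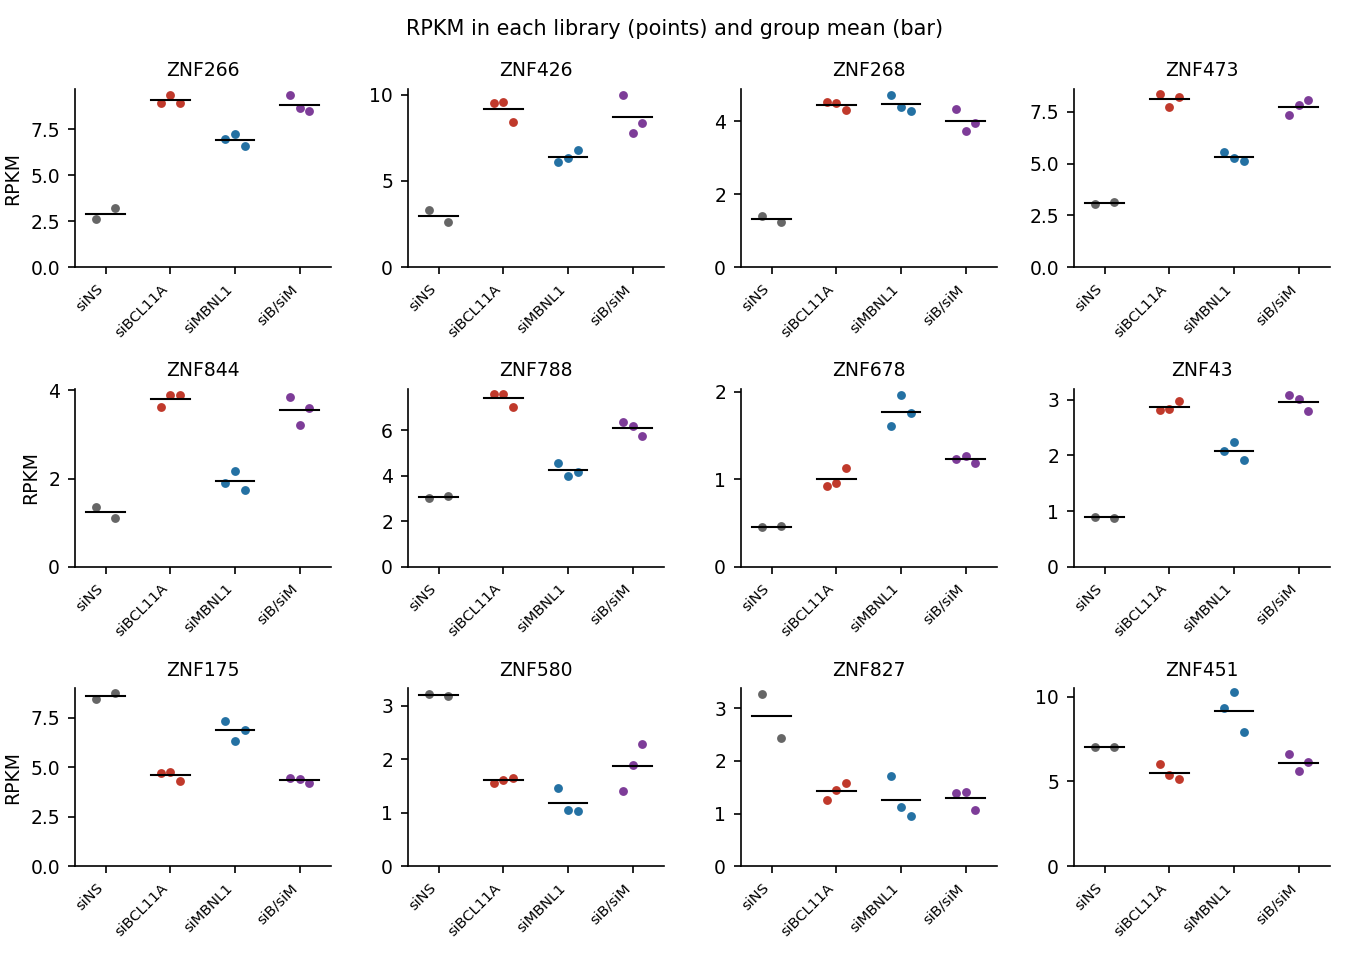
RPKM (y axis, from 0) of 12 ZNF genes in each library, as points by group (x axis), with bars at the group means. ZNF266, ZNF426, ZNF473, ZNF844, ZNF788 and ZNF43 are highest with siBCL11A or siB/siM, ZNF678 with siMBNL1, ZNF175, ZNF580 and ZNF827 are lower in every knockdown library, and ZNF451 is above siNS only in siMBNL1.

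The KRAB box went with the direction. In siBCL11A, 101 of 112 listed KRAB members were higher and 3 lower, with a median of 0.48, while among members without the box 27 of 47 were higher and 14 lower, with a median of 0.30. In siMBNL1 the counts were 83 higher and 5 lower of 95 against 18 and 12 of 32. With both pools they were 144 and 4 of 159 against 39 and 10 of 57. The shares of all listed genes were 42.3%, 45.2% and 51.3% higher and 46.9%, 49.1% and 35.5% lower. Members without the box were thus also higher more often than all genes (57.4%, 56.2% and 68.4%). They were lower less often (29.8%, 37.5% and 17.5%). Members with under 5 fingers had 8 higher (44.4%, near the 42.3% of all listed genes) and 6 lower of 18 in siBCL11A. Their medians were −0.31 in siBCL11A, −0.02 in siMBNL1 and 0.34 with both pools. Those with at least 10 fingers had 83 higher and 6 lower of 96 in siBCL11A, with a median of 0.49. The box, the number of fingers and the level all move together among the members, and their separate parts were not tested.

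On chromosome 19, 6 runs of at least 9 members, with no more than 5 protein-coding genes of other kinds between neighbours, held 103 members. In siBCL11A 69 of the 75 listed were higher and 1 lower, in siMBNL1 51 and 1 of 54, and with both pools 91 and 0 of 95. Among all listed genes 42.3%, 45.2% and 51.3% were higher and 46.9%, 49.1% and 35.5% lower. Among KRAB members anywhere 90.2%, 87.4% and 90.6% were higher. The run from ZNF317 to ZNF562, which holds ZNF266, ZNF426 and ZNF559, had 8 of 8 higher in siBCL11A with a median of 0.75. From ZNF653 to ZNF791 all 15 listed were higher (median 0.67) and from ZNF101 to ZNF254 12 of 13 (0.67). The runs from ZNF565 to ZNF573 and from ZNF264 to ZNF8 had 12 of 14 (0.48) and 17 of 18 (0.43). From ZNF649 to ZNF331, 5 of 7 were higher, and the fall was that of ZNF614 (−0.25). Genes of chromosome 19 that are not members went mainly down in the single knockdowns: in siBCL11A 64 of 278 were higher and 157 lower, with a median of −0.35, and in siMBNL1 61 and 159 of 243, with a median of −0.39. With both pools, however, 188 of 357 were higher and 119 lower, with a median of 0.26. In siBCL11A, KRAB members on other chromosomes had 33 of 37 higher and 0 lower, with a median of 0.45, against 0.49 for KRAB members on chromosome 19. Chromosome 19 members without the box had 4 higher and 5 lower of 12 there, with a median of −0.31. In siMBNL1 they had 3 and 4 of 7 (median −0.35), and with both pools 7 and 3 of 10 (0.48). Runs of duplicated genes share sequence, and the table does not say how reads that fit several copies were counted, so values of close copies are uncertain.

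**Figure D4:**
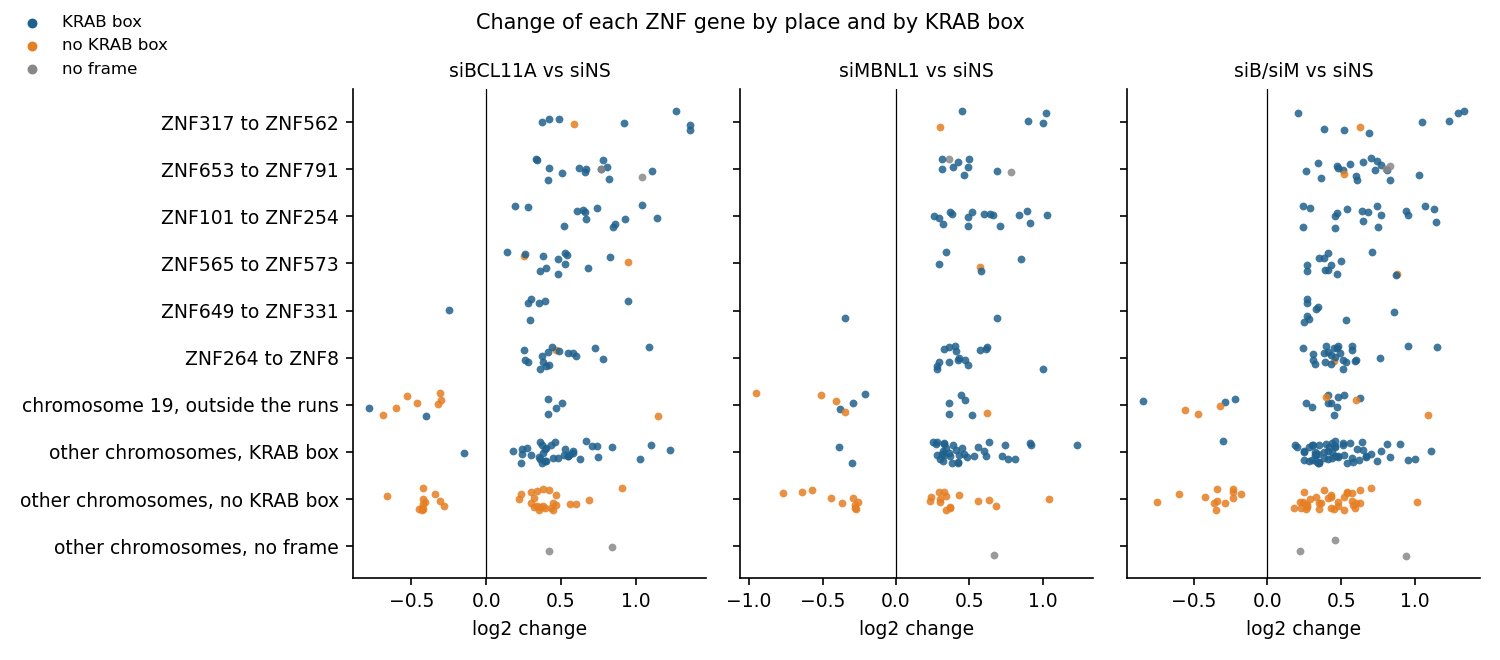
Log2 change (x axis) of each listed ZNF gene in the 3 comparisons with siNS, sorted on the y axis by run on chromosome 19 or by other place, with KRAB genes in blue, genes without the box in orange and genes with no frame in grey. The 103 genes of the runs lie to the right of 0 apart from single genes of the run ZNF649 to ZNF331, and most points left of 0 are orange.

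Promoters were read from RefSeq (GRCh38.p14, from 250 bases before to 50 after the start), where 215 of the 246 members matched. Among 8 motifs searched on both strands, TTCCGG, whose complement holds the GGAA core of ETS factors, was in 53.5% of the members' promoters and in 17.6% of all 27305. CCAAT, the box bound by NF-Y, was in 53.5% against 35.7%, with 63.7% of KRAB and 25.9% of other members. TGACCA, the letters BCL11A is known to bind, was in 16 members (7.44%) against 11% of all promoters. The palindromes TGACGTCA and TGCGCA were in 6.51% and 14.4% against 1.98% and 8.42%, ACTACAA in 5.58% against 2.95%, CACGTG in 6.05% against 7.43% and GATGGCGG in 2.79% against 2.44%. None of the 8 contains another. TGACGTCA was added after the sequences of members had been seen. The 27305 promoters are not limited to genes of the expression table. Listed members with and without TTCCGG had median changes of 0.47 and 0.42 in siBCL11A, 0.40 and 0.41 in siMBNL1, and 0.46 and 0.46 with both pools. Called higher were 91.3% and 80.3%, 86.2% and 75%, and 83.7% and 88.6% of them, against 42.3%, 45.2% and 51.3% of all listed genes.

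Some promoters showed a layout in common. The 120 bases before the start are given for 6 KRAB members that rose, on chromosomes 19, 1 and 16, and for ZNF266 and ZNF428, which lack the layout. Capitals mark CCAAT and TTCCGG, positions are on GRCh38.p14, and each line reads along the gene's strand.
ZNF724P, chr19:23250395-23250514, − strand: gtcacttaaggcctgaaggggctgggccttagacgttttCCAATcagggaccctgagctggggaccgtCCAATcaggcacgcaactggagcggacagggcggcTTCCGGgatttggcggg
ZNF43, chr19:21836183-21836302, − strand: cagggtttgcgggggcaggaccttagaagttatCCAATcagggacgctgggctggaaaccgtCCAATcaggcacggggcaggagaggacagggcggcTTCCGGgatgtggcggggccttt
ZNF714, chr19:21082083-21082202, + strand: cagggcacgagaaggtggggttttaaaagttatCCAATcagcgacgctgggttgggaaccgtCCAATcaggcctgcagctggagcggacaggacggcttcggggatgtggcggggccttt
ZNF93, chr19:19900826-19900945, + strand: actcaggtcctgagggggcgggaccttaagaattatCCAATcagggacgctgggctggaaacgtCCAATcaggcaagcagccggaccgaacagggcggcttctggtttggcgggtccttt
ZNF678, chr1:227563436-227563555, + strand: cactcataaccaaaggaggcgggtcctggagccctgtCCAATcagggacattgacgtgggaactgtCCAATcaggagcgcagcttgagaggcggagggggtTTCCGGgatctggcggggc
ZNF267, chr16:31873687-31873806, + strand: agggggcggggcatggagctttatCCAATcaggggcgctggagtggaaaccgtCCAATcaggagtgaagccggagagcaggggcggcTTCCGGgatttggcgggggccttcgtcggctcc
ZNF266, chr19:9435574-9435693, − strand: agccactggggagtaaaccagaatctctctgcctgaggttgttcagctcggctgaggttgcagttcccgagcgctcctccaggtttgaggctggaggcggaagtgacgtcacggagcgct
ZNF428, chr19:43619630-43619749, − strand: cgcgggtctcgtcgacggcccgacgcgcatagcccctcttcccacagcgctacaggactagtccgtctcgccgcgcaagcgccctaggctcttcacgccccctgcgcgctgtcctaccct
In the 6, a pair of CCAAT boxes lay 27 to 30 bases apart, start to start, and TTCCGG followed in ZNF724P, ZNF43, ZNF678 and ZNF267. Such a pair was in 24 members (11.2%), 23 of them KRAB genes, and in 300 of all 27305 promoters (1.1%). Of these 24 members, 21 of 21 listed were higher in siBCL11A (median 0.74), 21 of 21 in siMBNL1 (0.66) and 22 of 24 with both pools (0.72), with none lower. The layout was noticed in promoters of members picked for their rise, so these counts are a description and no test of it.

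Among the genes with the layout, ZNF724P was at 4.83 and 3.71 RPKM in siNS and at 10.8, 10.5 and 10.4 in siBCL11A (log2 change 1.14 ± 0.12, adjusted p = 2.14e-05). ZNF43 was at 0.89 and 0.883 RPKM in siNS, at 2.82, 2.84 and 2.97 in siBCL11A, at 2.07, 2.25 and 1.92 in siMBNL1 and at 3.09, 3.02 and 2.79 in siB/siM. Its siNS libraries were the lowest and siMBNL1 lay in between. ZNF93, known to restrain LINE-1 elements, rose from 1.4 ± 0.16 (n = 2) to 3.01 ± 0.221 RPKM in siBCL11A (n = 3), a log2 change of 0.74 ± 0.09. ZNF714 rose by 0.85 ± 0.09, 0.91 ± 0.09 and 1.14 ± 0.09 in siBCL11A, siMBNL1 and siB/siM.

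Falls were fewer, and mostly in genes without a KRAB box: 14 of 17 in siBCL11A, 12 of 17 in siMBNL1 and 10 of 14 with both pools. Without siNS library 1, the numbers of members called lower dropped to 9, 6 and 6. ZNF175, also called OTK18, is the KRAB gene that fell most in siBCL11A and in siB/siM. It was at 8.44 and 8.77 RPKM in siNS, at 4.69, 4.78 and 4.31 in siBCL11A, at 7.36, 6.31 and 6.89 in siMBNL1 and at 4.47, 4.43 and 4.21 in siB/siM. The siBCL11A and siB/siM libraries lay well under the others, with log2 changes of −0.78 ± 0.07 (adjusted p = 3.99e-06) and −0.84 ± 0.07 (2.16e-06). In siMBNL1 the change was −0.29 ± 0.07 (adjusted p = 0.00709), which was no longer called without siNS library 2 (−0.27, adjusted p = 0.0752).

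ZNF580 was at 3.23 and 3.18 RPKM in siNS, at 1.56, 1.62 and 1.65 in siBCL11A, at 1.46, 1.05 and 1.03 in siMBNL1 and at 1.42, 1.9 and 2.29 in siB/siM. It was lower in every knockdown library, with the largest log2 change of any falling member in siMBNL1 (−0.95 ± 0.11, adjusted p = 7e-05). ZNF827, which brings NuRD to telomeres in cells that use alternative lengthening, was at 3.27 and 2.43 RPKM in siNS, at 1.26, 1.46 and 1.58 in siBCL11A, at 1.71, 1.13 and 0.954 in siMBNL1 and at 1.39, 1.41 and 1.06 in siB/siM. No knockdown library reached the siNS range, but the siBCL11A change of −0.66 ± 0.13 (adjusted p = 0.00267) missed the call without siNS library 1 (−0.50, adjusted p = 0.0562). ZNF462, a large protein with 33 fingers by the pattern used here, was at 5.62 and 5.41 RPKM in siNS and between 3.12 and 3.99 in the 9 knockdown libraries, with changes of −0.42 ± 0.07, −0.57 ± 0.07 and −0.60 ± 0.07. ZNF575 and ZNF516 completed the 6 members that were lower in all 3 comparisons. Their siMBNL1 calls (−0.35, adjusted p = 0.028, and −0.26, adjusted p = 0.0354) each failed without either siNS library. The changes were then −0.33 and −0.37 for ZNF575 and −0.22 and −0.31 for ZNF516. The ZNF575 call also failed without siMBNL1 library 2 or 3 (limma, adjusted p = 0.059 and 0.106). That of ZNF516 failed without any siMBNL1 library (adjusted p = 0.0509 to 0.115). The siB/siM call of ZNF516 (−0.29, adjusted p = 0.0174) was also lost without siNS library 1 (−0.24, adjusted p = 0.165) or siB/siM library 1 (adjusted p = 0.0652).

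ZNF428 and ZNF24, a repressor of VEGF, fell in siBCL11A and were in no other block. ZNF428 went from 11.1 and 11.9 to 7.4, 7.31 and 8.44 RPKM (−0.53 ± 0.08, adjusted p = 0.00133), and ZNF24 from 10.5 and 11.5 to 8.19, 8.08 and 7.7 RPKM (−0.42 ± 0.07, adjusted p = 0.00204). ZNF703, a gene amplified in luminal breast tumours, fell in siMBNL1, from 2.48 and 1.54 to 1.01, 0.762 and 0.962 RPKM (−0.64 ± 0.14, adjusted p = 0.00912), which missed the threshold when siNS library 1 was left out (−0.41, adjusted p = 0.122).

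Members whose role is well described moved both ways. There were 27 such members in the table. In siBCL11A 8 of 14 listed were higher and 5 lower, and in siMBNL1 8 and 6 of 14. With both pools 16 of 23 were higher and 4 lower. Medians were 0.26, 0.24 and 0.35. Of all listed genes, 42.3%, 45.2% and 51.3% were higher in these comparisons, and 46.9%, 49.1% and 35.5% were lower. ZNF410, an activator known for driving CHD4 of the NuRD complex, was at 20.5 and 20.3 RPKM in siNS, at 29.5, 28.8 and 28 in siBCL11A, at 24.2, 26 and 25.5 in siMBNL1 and at 29.1, 28.1 and 27.8 in siB/siM. All knockdown libraries were above siNS, by 0.47 ± 0.05, 0.29 ± 0.05 and 0.45 ± 0.05 on the log2 scale (adjusted p = 3.85e-05, 0.00186 and 5.15e-05). ZNF274, which marks the 3′ ends of ZNF genes with repressive chromatin, was at 8.17 and 8.16 RPKM in siNS, at 10.4, 11.5 and 11.4 in siBCL11A and at 10.4, 12.2 and 11.6 in siB/siM. The groups did not overlap, with rises of 0.40 ± 0.07 and 0.43 ± 0.07 (adjusted p = 0.0023 and 0.00135). The KRAB gene ZNF202 rose by 0.40 ± 0.07, 0.37 ± 0.07 and 0.56 ± 0.07. ZNF207, a mitotic protein also called BuGZ, went from 25.7 ± 0.0946 RPKM in siNS to means of 30.1, 30.6 and 29.2, and each of its 3 calls (0.22, 0.24 and 0.18) was lost without either siNS library (adjusted p = 0.0742 to 0.208). ZNF143, a general activator at promoters, was listed with both pools only and missed the call (0.22 ± 0.09, adjusted p = 0.139). ZNF598, the ubiquitin ligase that marks collided ribosomes, rose there from 6.75 and 5.46 to 8.57, 8.64 and 10.8 RPKM (0.54 ± 0.11, adjusted p = 0.00908), but not past the threshold once siNS library 2 was left out (0.41, adjusted p = 0.0828).

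Most members were weakly expressed. In siNS their median was 2.08 RPKM, with quartiles of 1.16 and 3.35, against 10.5 RPKM for all genes of the table, and 84.6% were under 5 RPKM against 30.2%. The highest were ZNF259 (now ZPR1, a protein of another zinc finger type) at 124 RPKM and ZNF593, a ribosome assembly factor, at 34 RPKM. ZNF207, ZNF511, ZNF146, ZNF410, ZNF330, ZNF121, ZNF706 and ZNF22 followed, between 25.7 RPKM and 14.7 RPKM, and no KRAB box was found in any of the 10. ZNF207, ZNF146, ZNF410, ZNF330, ZNF121 and ZNF22 were called higher in each block that listed them. The siMBNL1 calls of ZNF121 and ZNF22 (both 0.30) did not hold without siNS library 2, where the changes were 0.22 and 0.20. Nor did the siB/siM call of ZNF22 (0.36, then 0.26). The siMBNL1 call of ZNF121 was also lost without siMBNL1 library 3 (limma, adjusted p = 0.0544). That of ZNF22 was lost without siMBNL1 library 1 or 2 (adjusted p = 0.0868 and 0.102) and with a pseudocount of 0.1 (adjusted p = 0.0506). ZNF259 fell in siMBNL1 (−0.29, adjusted p = 0.0154, and 0.147 without siNS library 2) and ZNF511 in siBCL11A (−0.34, adjusted p = 0.016, and 0.0546 or 0.139 without siNS library 1 or 2). ZNF146, a protein made almost of fingers alone, was at 20.8 and 20.5 RPKM in siNS, at 42.8, 39.8 and 40.1 in siBCL11A, at 31.9, 34.4 and 27.3 in siMBNL1 and at 41.6, 37.6 and 37 in siB/siM. The siBCL11A level was 1.98 times that of siNS (log2 change 0.95 ± 0.09, adjusted p = 6.57e-06).

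Most listed members were higher at both levels of expression, but a smaller part of those at 5 RPKM or more when sorted by siNS alone. Sorted by their mean over all listed libraries, 104 of 127 members under 5 RPKM were higher in siBCL11A, with a median of 0.43, and 28 of 36 at or above it, with a median of 0.38. That mean holds the knockdown values, so a change can move a gene between classes. Sorted by siNS alone, a split added after seeing the data, 116 of 137 and 16 of 26 were higher, with medians of 0.45 and 0.34. Lower were 8 of the 137 and 9 of the 26. Other genes at 5 RPKM or more had 1624 higher and 1793 lower of 3841 on that split. By siNS alone, other genes under 5 RPKM had 512 higher and 702 lower of 1356, with a median of −0.31 (−0.44 by the mean over libraries). With both pools their median was 0.26 by siNS alone and −0.30 by the mean over libraries, so its sign rests on the split.

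**Figure D5:**
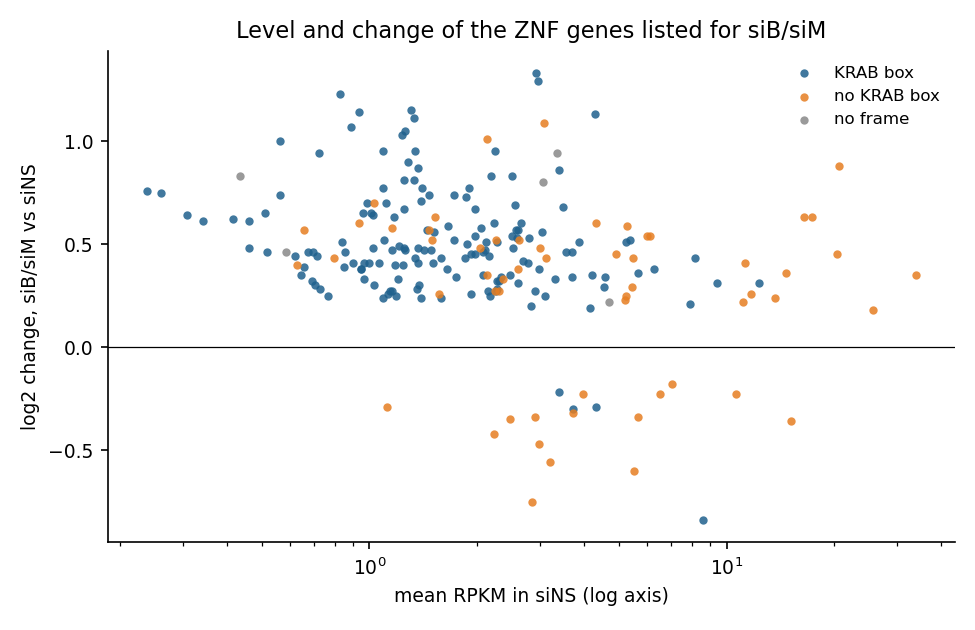
Log2 change with both pools (y axis) against the mean RPKM in siNS (x axis, log scale) for the 221 ZNF genes listed for siB/siM, with KRAB genes in blue, others in orange and genes with no frame in grey. Most points are under 5 RPKM and above 0, and the points below 0 are mostly orange.

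The knockdowns were also compared with each other, over members that had passed the authors' test against siNS in both blocks. The differences use no siNS value, but their errors come from the fit over all 11 libraries. Between siBCL11A and siMBNL1, 10 of 100 members were higher in siBCL11A (7.02% of all listed genes) and 7 lower (11.9%), with a median of 0.05. Libraries did not overlap in 41 members, as in 44.5% of all listed genes. ZNF844 differed most: it was at 3.61, 3.9 and 3.89 RPKM in siBCL11A, at 1.9, 2.16 and 1.75 in siMBNL1, at 3.84, 3.21 and 3.59 in siB/siM and at 1.36 and 1.11 in siNS. The siBCL11A and siB/siM libraries were all above the siMBNL1 libraries, with a siBCL11A minus siMBNL1 difference of 0.71 ± 0.07 (adjusted p = 9.74e-05). ZNF788, a transcribed pseudogene in RefSeq, was at 7.59, 7.57 and 7 RPKM in siBCL11A and at 4.55, 4 and 4.18 in siMBNL1, a difference of 0.68 ± 0.06 (adjusted p = 2.79e-05). ZNF473, which helps to process the ends of histone transcripts, was at 8.32, 7.71 and 8.23 RPKM in siBCL11A and at 5.54, 5.24 and 5.11 in siMBNL1, a difference of 0.53 ± 0.05 (adjusted p = 0.000103). Its KRAB match, with 11 of 36 residues, was under the minimum used here.

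Lower in siBCL11A than in siMBNL1 were ZNF451, ZNF175, ZNF74, ZNF678, ZNF267, ZNF238 and ZNF367. ZNF678 was at 0.46 and 0.462 RPKM in siNS, at 0.923, 0.963 and 1.13 in siBCL11A, at 1.61, 1.96 and 1.75 in siMBNL1 and at 1.24, 1.26 and 1.19 in siB/siM. All 4 groups stood apart, and the siBCL11A minus siMBNL1 difference was −0.47 ± 0.06 (adjusted p = 0.000606). ZNF451, a SUMO ligase, was at 7.05 and 7.04 RPKM in siNS, at 6.03, 5.39 and 5.12 in siBCL11A, at 9.34, 10.2 and 7.89 in siMBNL1 and at 6.61, 5.59 and 6.12 in siB/siM. It was the member with opposite calls, −0.31 ± 0.10 in siBCL11A (adjusted p = 0.0406) and 0.33 ± 0.10 in siMBNL1 (adjusted p = 0.03). Neither call held without either siNS library (adjusted p = 0.147 to 0.183), while the direct difference was −0.64 ± 0.09 (adjusted p = 0.00102). The number of members called between siBCL11A and siMBNL1 fell from 17 to 9 without siBCL11A library 2. The ZNF267 difference (−0.39, adjusted p = 0.0114) was lost without siMBNL1 library 2 (−0.35, adjusted p = 0.0529). That of ZNF74 (−0.48, adjusted p = 0.0496) was lost without siBCL11A library 1 or 2 or any siMBNL1 library (adjusted p = 0.0811 to 0.173).

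Between siB/siM and siBCL11A, 0 of 145 members were called by limma (higher 1.77%, lower 0.266% and either way 2.04% of all listed genes, with a fall of 1 or more in 0.0222%), and 29 had an unadjusted p under 0.05. The median was 0.03, the differences ran from −0.24 for ZNF788 to 0.31 for ZNF267, and their median SE was 0.07. Between siB/siM and siMBNL1, 12 of 118 were higher with both pools (5.76%) and 3 lower (5.81%), with a median of 0.09. ZNF844 (0.63 ± 0.07), ZNF473 (0.47 ± 0.05) and ZNF788 (0.43 ± 0.06) led the rises and ZNF175 (−0.55 ± 0.06), ZNF451 (−0.51 ± 0.09) and ZNF678 (−0.32 ± 0.06) were the falls. The fall of ZNF678 (adjusted p = 0.0158) was lost without siMBNL1 library 2 or any siB/siM library (adjusted p = 0.055 to 0.0771). The total of 15 became 9, 7 and 9 without siB/siM library 1, 2 or 3. The combined group received less of each pool than the single groups, so these differences set unequal doses side by side.

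Other genes of the KRAB pathway were measured as well. Of 26 genes listed for the corepressor and heterochromatin, 17 were in the table. In siBCL11A 7 of 11 were higher and 3 lower, and in siMBNL1 7 and 2 of 9. With both pools 8 of 16 were higher and 2 lower. Of all listed genes, 42.3%, 45.2% and 51.3% were higher in these comparisons, and 46.9%, 49.1% and 35.5% were lower. With both pools the share of higher genes was therefore near that of all genes. TRIM28, the corepressor itself, was not in the siBCL11A block and rose by 0.23 ± 0.06 in siMBNL1 and 0.36 ± 0.06 in siB/siM (adjusted p = 0.0224 and 0.00152). The histone methyltransferase gene SUV39H1 rose by 0.71 ± 0.07, 0.55 ± 0.07 and 0.62 ± 0.07 in the 3 comparisons, the heterochromatin protein gene CBX1 by 0.47, 0.52 and 0.59, and UHRF1, which guides DNA methylation, by 0.59, 0.92 and 0.97. EHMT1 (−0.35), TRIM24 (−0.34) and DNMT3A (−0.33), a histone methyltransferase, a TRIM28 relative and a DNA methyltransferase, fell in siBCL11A. TRIM24 fell in siB/siM too (−0.34). DNMT3A also fell in siMBNL1 (−0.41) and was not called in siB/siM (−0.24). For NuRD and other partners of BCL11A, 14 of 26 genes were in the table. In siBCL11A 4 of 7 were higher and 1 lower, and in siMBNL1 2 and 2 of 5. With both pools 8 of 12 were higher and 1 lower. Both lists are short, and the shares of all listed genes given above apply to them. GATAD2A rose by 0.53 ± 0.08 in siBCL11A and by 0.60 ± 0.08 in siB/siM. SIN3B fell in all 3 comparisons, with log2 changes of −0.72 ± 0.07 in siBCL11A, −0.89 ± 0.07 in siMBNL1 and −0.73 ± 0.07 in siB/siM (limma, adjusted p = 6.73e-06, 1.89e-06 and 5.42e-06).

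Zinc finger genes with other names were measured too. Of all listed genes, 42.3% were higher and 46.9% lower in siBCL11A, and 45.2% and 49.1% in siMBNL1. With both pools 51.3% were higher and 35.5% lower. ZBTB genes had 7 higher and 2 lower of 9 in siBCL11A, 9 and 3 of 12 in siMBNL1 and 12 and 3 of 17 with both pools. ZFP genes had 4 and 1 of 5, 4 and 1 of 5, and 8 and 2 of 11, and ZSCAN or ZKSCAN genes 2 and 0 of 2, 2 and 0 of 2, and 3 and 0 of 3. KLF and SP genes, which carry only a short finger array and no KRAB box, had 5 and 4 of 9, 2 and 4 of 7, and 7 and 3 of 12. CCCH genes, the type of MBNL1, had 2 and 1 of 3, 3 and 3 of 7, and 5 and 1 of 6. ZDHHC genes, whose zinc-binding domain transfers palmitate and reads no DNA, had 4 and 4 of 10, 3 and 1 of 5, and 5 and 2 of 7. These families are small, and the ZDHHC counts in siBCL11A were close to the shares of all listed genes.

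Splicing was deposited as cassette exons with 1 inclusion level per group, so no spread can be given and the depth is unknown. The 1 member among them was ZNF271, a transcribed pseudogene, with an exon of 223 bases (hg19 chr18:32870974-32871196, + strand). In the authors' deposited table its inclusion was 0.728 in siNS and 0.888 in siBCL11A, and 0.912 in siB/siM. Its level rose as well, from 3.24 and 3.48 RPKM in siNS to 6.95, 6.76 and 6.69 in siBCL11A and 7.5, 7.1 and 7.56 in siB/siM, with log2 changes of 0.84 ± 0.06 and 0.94 ± 0.06 (adjusted p = 1.64e-06 and 6.7e-07). The level was also above siNS in siMBNL1, at 5.95, 6.36 and 5.46 RPKM, although the exon was not in the siMBNL1 list. ZNF687 and ZNF673 also had exons in the lists but no value in the expression table used here. Inclusion of an exon of 869 bases in ZNF687 (hg19 chr1:151257682-151258550, + strand) went from 0.172 to 0.405 in siBCL11A and 0.425 in siMBNL1 in the authors' deposited table. That of an exon of 44 bases in ZNF673 went down, from 0.729 to 0.396 in siBCL11A.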

How the data were processed

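The authors deposited RPKM values per library, a log2 fold change (siNS over knockdown, opposite to the sign used here), a mean log2 CPM and p-values in a block per knockdown, made on hg19 per the submitters' processing notes; per the labels, ribosomal RNA was removed and libraries were stranded. The authors also deposited inclusion levels as a fraction, and the ratio of means in lists of genes for siBCL11A. Aligner, counting program and annotation: not given in the sources used here. Since the unit was RPKM, no count test was run. limma 3.58.1 (R 4.3.3) was fitted on log2(RPKM + 1) over all 8085 genes and 11 libraries, with a cell-means model; a group in which a gene was not listed was left out of that gene's fit. The filter, a group mean of 1 RPKM or more, was passed by all 246 members, some only through a group where they were high. Benjamini-Hochberg adjustment counted the 23227 tests behind the authors' adjusted p-values. The ± after a log2 change is the SE, elsewhere the SD. The fit was tested on simulated data.

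Members, lists and features were chosen with earlier results of these data known. Named members were, per comparison with siNS, up to 10 with the largest called rise and fall whose libraries do not overlap, up to 5 each between knockdowns, the 10 highest in siNS, those with opposite calls or a cassette exon, and those with a known role; ZNF614, ZNF238, ZNF367 and promoters shown beyond these were picked after their values were seen. Lists were KRAB corepressor and heterochromatin, NuRD and partners, and families by name; BCL11 genes had no value. Of the members, 8 matched RefSeq (GRCh38.p14) by an older symbol. Motif, run and domain counts use no test. Depth came from steps in short RNAs, where 61.1 to 84.6% of values were whole within 0.05 reads. Deviations of equally numbered siBCL11A and siB/siM libraries correlated weakly (r = 0.33, 0.19 and 0.18). The sample titles give replicate numbers only, so whether equal numbers belong together is not known. A fit blocked by these numbers also called 0 members there. Alternatives were pseudocount, filter, centring, moderation, replicate block, libraries fitted, genes adjusted over and each library left out.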

Additional observations from a re-analysis of the deposited data

How the results depend on the processing

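Against siNS, total counts of members called stayed within 1.5 times and medians kept their sign under each alternative run, but without siNS replicate 1 the lower calls went from 17, 17 and 14 to 9, 6 and 6 (siBCL11A, siMBNL1, siB/siM). A pseudocount of 0.1 gave medians of 0.61 (siBCL11A), 0.57 (siMBNL1) and 0.64 (siB/siM), and centring gave 0.47 in siBCL11A and 0.00 in siB/siM against siBCL11A. Without 1 library, medians ran from 0.41 to 0.44, 0.38 to 0.42 and 0.45 to 0.46, and counts called from 120 to 145, 83 to 114 and 150 to 185; where siNS kept 1 library, it was assumed to vary like the other groups. Between siBCL11A and siMBNL1, a minimum of 2 RPKM gave a median of 0.09, adjustment over listed genes alone called 29, and leaving out 1 library gave 9 to 16, with medians from 0.04 to 0.07. Adjusted over listed genes, siB/siM against siBCL11A had 8 calls (0 to 0 without 1 library, medians 0.01 to 0.03) and against siMBNL1 30; fitting only the groups compared gave 8 and leaving out 1 library 7 to 12 (medians 0.07 to 0.12). The cause was not tested. With the replicate block, 145, 121 and 189 members were called against siNS and 17, 0 and 14 between knockdowns; in the other pairs of groups not every equal number correlated (r from −0.22 to 0.24). Of 167 calls of named members, 13 were lost with the pseudocount of 0.1, 8 by centring and 10 with the block, and none changed direction. Counting each call once for every library left out, 712 cases kept the call and 148 lost it. With levels taken from siNS alone, an alternative chosen after seeing the data, the median of other genes under 5 RPKM turned to 0.26 in siB/siM, and of those at 5 RPKM or more to −0.21 in siBCL11A and −0.26 in siMBNL1; the class then holds no knockdown values. Low levels, 2 siNS libraries and a table of genes already found changed limit all values.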
